A study of Mus musculus with 16 samples.

Results

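A set of 10 genes of the switch that lets a cell enter or leave the cell cycle were followed across basal and suprabasal cells of newborn mouse epidermis. They were chosen by name: the D-type cyclins Ccnd1, Ccnd2 and Ccnd3, their kinases Cdk4 and Cdk6, the Cip/Kip inhibitors Cdkn1a, Cdkn1b and Cdkn1c, and the INK4 inhibitors Cdkn2b and Cdkn2c. All 10 were among the 24981 genes listed in each of 2 tables of RPKM (reads per kilobase of transcript, scaled to the reads of the library), and all 10 passed the filter on low values in both. RNA sequencing covered 16 libraries from neonates aged 0 to 2 days, after a Percoll density gradient had parted the epidermal cells into a suprabasal and a basal fraction. The first table held 4 suprabasal and 4 basal libraries of Fvb/N mice, with no genotype contrast. The second held 2 libraries each of Dlx3 KO suprabasal, Dlx3 WT suprabasal, Dlx3 KO basal and Dlx3 WT basal cells, all from mice on a mixed CD-1 and C57BL/6 background. Dlx3 is a homeobox transcription factor of differentiating epidermis. How the Dlx3 allele was disrupted, any Cre driver and the number of animals behind a library are not given in the sources used here, so p-values measure the spread between libraries, which may be technical.

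D-type cyclins are made in response to growth signals and activate Cdk4 and Cdk6, which phosphorylate the retinoblastoma protein and so release E2F factors for S phase. INK4 proteins bind Cdk4 and Cdk6 and keep the cyclin away. Cip/Kip proteins bind cyclin and kinase together and inhibit Cdk2 complexes. In epidermis, keratinocytes divide in the basal layer and leave the cycle as they move up, and Cdkn1a is a textbook target of p53 and of differentiation signals in keratinocytes.

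The genes lie on 6 mouse chromosomes (build GRCm38, GENCODE annotation). Cdkn1a is at chr17:29090976-29100727 and Ccnd3 at chr17:47505051-47599691, both on the plus strand. Cdkn2b, at chr4:89306299-89311039, and Cdkn2c, at chr4:109660876-109667189, are both on the minus strand. Ccnd2, at chr6:127125162-127152193 on the minus strand, shares a chromosome with Cdkn1b at chr6:134920401-134925513 on the plus strand. Cdkn1c, at chr7:143458339-143461050, and Ccnd1, at chr7:144929931-144939925, are on the minus strand. Cdk4 is at chr10:127063534-127067920 and Cdk6 at chr5:3341485-3531008, both on the plus strand. Exons of Cdk4 share 641 bases with Tspan31, those of Ccnd3 share 361 with Bysl, those of Ccnd1 share 1100 with LTO1 and those of Ccnd2 share 368 with 9330179D12Rik, each on the opposite strand. Whether reads were counted by strand is not given in the sources used here, so reads in those stretches cannot be assigned with certainty. Ccnd3 also has a processed pseudogene, Ccnd3-ps, on chromosome 4.

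Promoter windows from RefSeq (GRCm38.p6, 250 bases before to 50 after a start) matched 7 of the 10 genes; none matched Ccnd1, Ccnd2 or Cdkn1c. The windows printed are those of Cdkn1a and Cdkn2b, the pair that was higher in suprabasal cells, and of Cdkn2c and Cdk4, an inhibitor and a kinase that were lower there. A further Cdkn2c window, downstream at chr4:109665323-109665622 on the minus strand, was not printed. Capitals mark the p53 consensus in the upstream Cdkn1a window (chr17:29090729-29091028, plus strand), the GC box GGGCGG in the downstream Cdkn1a window (chr17:29093519-29093818, plus strand), in Cdkn2b (chr4:89310983-89311282, minus strand) and in Cdkn2c (chr4:109666707-109667006, minus strand), and the E box CACGTG in Cdk4 (chr10:127063285-127063584, plus strand).
Cdkn1a upstream: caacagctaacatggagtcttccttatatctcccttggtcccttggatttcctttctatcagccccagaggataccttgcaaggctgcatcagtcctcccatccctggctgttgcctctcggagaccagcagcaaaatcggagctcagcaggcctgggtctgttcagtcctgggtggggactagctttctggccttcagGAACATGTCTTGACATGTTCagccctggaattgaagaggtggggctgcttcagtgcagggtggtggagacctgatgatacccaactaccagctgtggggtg
Cdkn1a downstream: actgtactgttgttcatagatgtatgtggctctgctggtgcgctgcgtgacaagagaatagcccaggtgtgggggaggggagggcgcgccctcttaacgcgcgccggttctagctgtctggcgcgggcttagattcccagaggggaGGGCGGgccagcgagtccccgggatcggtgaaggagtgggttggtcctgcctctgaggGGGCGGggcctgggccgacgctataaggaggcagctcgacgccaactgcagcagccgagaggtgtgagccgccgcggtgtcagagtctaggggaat
Cdkn2b: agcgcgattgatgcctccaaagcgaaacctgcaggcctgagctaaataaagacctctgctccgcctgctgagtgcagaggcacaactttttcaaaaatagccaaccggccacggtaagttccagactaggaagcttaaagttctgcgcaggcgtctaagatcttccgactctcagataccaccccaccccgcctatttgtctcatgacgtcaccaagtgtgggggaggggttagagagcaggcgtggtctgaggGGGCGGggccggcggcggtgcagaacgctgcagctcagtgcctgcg
Cdkn2c: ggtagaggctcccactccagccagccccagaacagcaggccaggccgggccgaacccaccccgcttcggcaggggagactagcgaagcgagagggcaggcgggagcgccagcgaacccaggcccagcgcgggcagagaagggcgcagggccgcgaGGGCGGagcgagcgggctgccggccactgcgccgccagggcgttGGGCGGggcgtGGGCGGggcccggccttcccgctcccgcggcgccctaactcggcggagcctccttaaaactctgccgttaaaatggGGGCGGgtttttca
Cdk4: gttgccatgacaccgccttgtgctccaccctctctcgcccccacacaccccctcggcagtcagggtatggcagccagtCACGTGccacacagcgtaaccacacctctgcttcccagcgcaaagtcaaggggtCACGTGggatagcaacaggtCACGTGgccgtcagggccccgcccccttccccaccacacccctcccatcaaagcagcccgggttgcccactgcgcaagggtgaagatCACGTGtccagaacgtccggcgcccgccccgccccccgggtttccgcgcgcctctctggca

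The upstream Cdkn1a window held a 20-letter match to the p53 consensus with at most 1 letter off, its first base at position -51 from the start, a match that 29 of 32851 windows (0.09%) hold. Such a match is a stretch of letters and not a measured binding site. The Cdk4 window held 4 copies of the E box, the motif that Myc and Max are known to bind, and 7.15% of windows hold at least 1. The Cdk6 window and the Cdkn2c window that was not printed held 1 each. The printed Cdkn2c window held 4 GC boxes and the further Cdkn2c window 0. The Cdk4 window held 3 on the other strand, the downstream Cdkn1a window 2 and the Cdkn2b window 1. Of all windows 35.66% hold at least 1 on either strand. No window of these genes held the E2F motifs TTTGGCGC, TTTGCCGC, TTTCGCGC or TTTCCCGC on either strand, which 2.26% of all windows hold. That says nothing of E2F binding outside those letters and windows.

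The libraries were checked before the genes were compared. Estimated depth was 45.9 to 61.9 M reads in Fvb/N libraries and 34.0 to 42.3 M in Dlx3 libraries. No interval can be given, since the tables hold no counts. Dlx3 RNA was 2.64 and 2.24 RPKM in KO suprabasal cells, against 7.87 and 6.92 RPKM in WT suprabasal cells, and 2.35 and 2.16 RPKM in KO basal cells, against 11.2 and 11.0 RPKM in WT basal cells, so every KO library was below every WT library of its fraction. Summed markers of basal keratinocytes (Krt5, Krt14, Itga6, Itgb4, Col17a1 and Trp63) were 656 to 3610 RPKM in Fvb/N suprabasal libraries, against 13290 to 16050 RPKM in Fvb/N basal libraries. The highest suprabasal value was that of replicate 3. In the Dlx3 table the same sum was 6588 to 7159 RPKM in suprabasal libraries, against 14610 to 15250 RPKM in basal libraries, so the Dlx3 suprabasal fraction carried more basal-marker RNA relative to its basal fraction than the Fvb/N one did. Summed suprabasal markers (Krt1, Krt10, Lor, Ivl, Krtdap, Sbsn, Dsc1 and Flg2) were 44580 to 95940 RPKM in Fvb/N suprabasal libraries, against 5494 to 39520 RPKM in Fvb/N basal libraries. Melanocyte markers were lower for 7 of 8 genes in Fvb/N suprabasal cells, with sums of 14.0 to 32.8 RPKM, against 97.9 to 172 RPKM in basal cells, and Langerhans markers for 6 of 6 tested, with sums of 11.3 to 74.4 RPKM, against 166 to 445 RPKM. Over all genes tested 60.6% were lower in Fvb/N suprabasal cells. In Dlx3 KO mice 7 of 8 Langerhans and myeloid markers were higher in suprabasal cells, against 19.9% of all genes. Their sums were 227 to 229 RPKM, against 182 to 183 RPKM in basal cells. In WT mice 5 of 8 were lower, against 70.4% of all genes. Melanocyte markers were lower for 6 of 8 genes in KO and 7 of 8 in WT mice, against 69.7% and 70.4%. In bulk samples, fewer cells of a type and less RNA per cell cannot be told apart.

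Suprabasal cells of Fvb/N mice carried more Cdkn1a and Cdkn2b RNA and less of every D-type cyclin, of Cdk4, Cdk6, Cdkn1b and Cdkn2c than basal cells. Changes were tested with limma on log2(RPKM + 1), a scale that understates the change of low genes, with Benjamini-Hochberg adjustment over all genes tested and a call at adjusted p under 0.05. By that rule 2 of the 10 genes were higher in suprabasal cells, against 13.4% of the 11608 genes tested, and 7 were lower, against 60.6%. The median change of all genes tested was -0.55 log2, so a fall near that size is what a typical gene showed in RPKM. After each library was rescaled by its median ratio, 2 of the 10 genes stayed called higher and 5 lower, and the median of all genes was -0.005.

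Cdkn1a (p21), which binds cyclin-CDK complexes and PCNA, was the most abundant inhibitor. It had 187, 187, 112 and 167 RPKM in Fvb/N suprabasal replicates 1 to 4, against 87.9, 84.4, 52.0 and 56.1 RPKM in Fvb/N basal replicates 1 to 4. Every suprabasal library was above every basal library. Basal replicates 1 and 2 stood well above replicates 3 and 4. Their summed suprabasal markers were 34620 and 39520 RPKM, against 5494 and 6413 RPKM in replicates 3 and 4. The part of that in the Cdkn1a level was not tested. The log2 fold change was 1.22 ± 0.23 (SE, n = 4 each; limma, adjusted p = 0.0013).

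Cdkn2b (p15), an INK4 inhibitor known as a target of TGF-beta in epithelial cells, had 11.5, 12.7, 6.32 and 8.59 RPKM in the suprabasal libraries, against 4.36, 3.91, 0.921 and 0.798 RPKM in the basal libraries. The groups did not overlap, and basal replicates 1 and 2 stood well above replicates 3 and 4. Those same basal replicates had the most suprabasal-marker RNA, and the part of that in the Cdkn2b level was not tested. The log2 fold change was 1.76 ± 0.39 (limma, adjusted p = 0.0029), and without basal replicates 1 and 2 it was 2.50 (adjusted p = 0.0009).

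The other INK4 gene moved the other way. Cdkn2c (p18) had 1.78, 1.53, 2.75 and 2.40 RPKM in suprabasal libraries, against 13.0, 13.4, 16.6 and 14.0 RPKM in basal libraries, with no overlap. It fell by 2.30 on the log2 scale (SE 0.15; limma, adjusted p = 5.3e-05). Cdkn2b therefore made up 80.9% ± 8.89 of the summed INK4 RPKM in suprabasal libraries and 14.6% ± 10.8 in basal libraries (SD, n = 4 each).

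The remaining Cip/Kip genes were not higher in suprabasal cells. Cdkn1b (p27) had 8.10, 7.51, 13.9 and 7.98 RPKM in suprabasal libraries, against 13.1, 13.9, 22.5 and 25.9 RPKM in basal libraries. Suprabasal replicate 3 was above basal replicate 1, so the groups overlapped. Cdkn1b fell by 0.92 on the log2 scale (limma, adjusted p = 0.0096), but by 0.317 after rescaling (adjusted p = 0.153), so it was not set apart from the shift of the typical gene.

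Cdkn1c (p57), an imprinted gene expressed from the maternal allele, had 1.01, 0.908, 3.01 and 6.96 RPKM in suprabasal libraries, against 3.48, 3.67, 6.02 and 6.49 RPKM in basal libraries. Suprabasal replicate 4 was above every basal library and the groups overlapped. The log2 fold change of -0.79 ± 0.43 did not pass the test (limma, adjusted p = 0.12). With the replicate number as a block it passed (-0.79, adjusted p = 0.011), as it did with the run code of the labels as a term (adjusted p = 0.0114) and without suprabasal replicate 4 (-1.21, adjusted p = 0.0097).

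The D-type cyclins fell by very different amounts. Ccnd2 had 1.75, 1.75, 19.2 and 4.98 RPKM in suprabasal libraries, against 70.4, 70.9, 114 and 117 RPKM in basal libraries. Suprabasal replicate 3, the library with most basal-marker RNA, was the highest of its group and still far below the basal range. The log2 fold change was -4.05 ± 0.58 (limma, adjusted p = 0.00027), and -4.68 without suprabasal replicate 3, a change of over 1.5 times in the fold.

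Ccnd1 had 4.88, 4.78, 13.1 and 7.91 RPKM in suprabasal libraries, against 37.7, 36.5, 57.2 and 55.5 RPKM in basal libraries. The groups were wide apart, with a log2 fold change of -2.53 ± 0.30 (limma, adjusted p = 0.00011). Ccnd3 was the least changed, with 20.7, 20.8, 26.6 and 30.0 RPKM in suprabasal libraries, against 43.9, 34.1, 44.4 and 49.2 RPKM in basal libraries. It fell by 0.79 on the log2 scale (limma, adjusted p = 0.0020), but by 0.154 after rescaling (adjusted p = 0.384), so its fall was not set apart from that of the typical gene.

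The unequal falls changed the make-up of D-type cyclin RNA. The summed RPKM of the 3 cyclins averaged 39.1 ± 15.1 in Fvb/N suprabasal libraries and 183 ± 41.7 in basal libraries (SD, n = 4 each). Ccnd3 made up 66.7% ± 14.7 of that sum in suprabasal libraries and 23.9% ± 3.58 in basal libraries. Ccnd2 made up 6.39, 6.41, 32.6 and 11.6% in suprabasal libraries, against 46.4, 50.1, 52.8 and 52.7% in basal libraries, a mean of 14.2% ± 12.5 in suprabasal and 50.5% ± 3.05 in basal libraries (SD, n = 4 each). Suprabasal replicate 3 carried much of the suprabasal mean, which was 8.13% ± 3.0 without it (n = 3), and the groups did not overlap. The Ccnd3 share was above every basal value in each suprabasal library, replicate 3 included, where it was lowest at 45.2%. Shares within a library do not change when that library is rescaled.

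Both kinases were lower in suprabasal cells. Cdk4 had 52.3, 51.6, 66.9 and 54.8 RPKM in suprabasal libraries, against 111, 110, 159 and 171 RPKM in basal libraries, a log2 fold change of -1.25 ± 0.18 (limma, adjusted p = 0.00027). Cdk6 had 1.82, 1.82, 4.58 and 2.0 RPKM in suprabasal libraries, against 8.94, 9.36, 12.5 and 10.8 RPKM in basal libraries, a log2 fold change of -1.73 ± 0.23 (limma, adjusted p = 0.00018). Neither overlapped between the fractions. Cdk4 was the main kinase at the RNA level, with 95.8% ± 1.49 of the summed kinase RPKM in suprabasal libraries and 92.9% ± 0.815 in basal libraries. The summed cyclin D RPKM was 0.269 ± 0.179 times the Cdkn1a RPKM in suprabasal libraries and 2.88 ± 1.36 times in basal libraries.

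**Figure D1:**
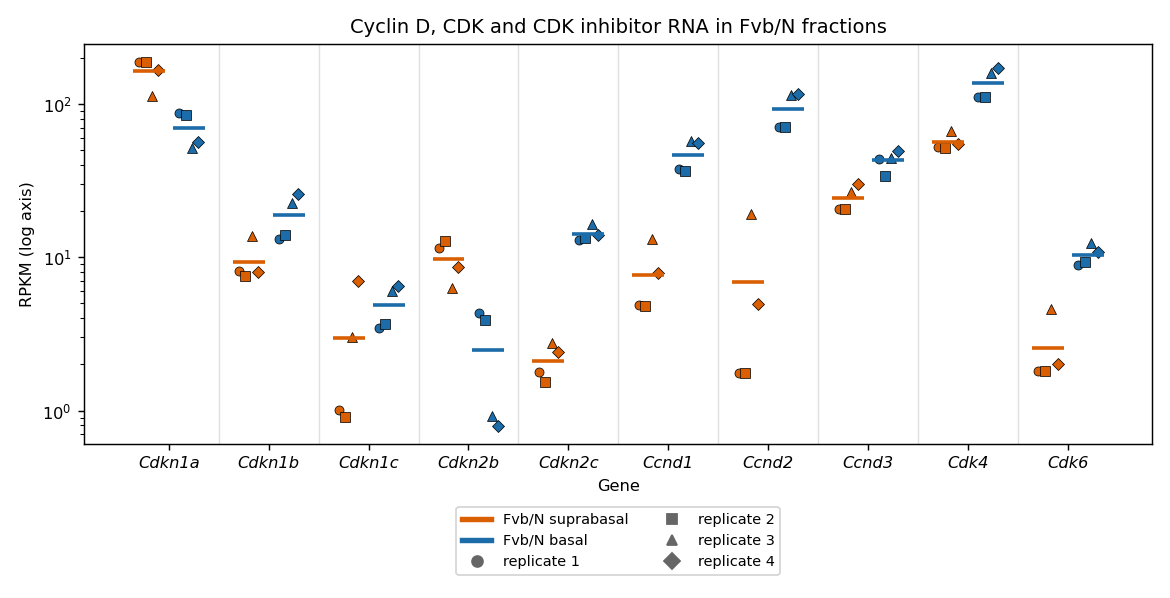
RPKM on a log axis (y) of the 10 genes (x) in each Fvb/N library, suprabasal in orange and basal in blue, with a marker shape per replicate and a line at the mean of 4. Cdkn1a and Cdkn2b sit higher in all 4 suprabasal libraries, Ccnd2 falls to 1.75 RPKM in the lowest suprabasal library, and the triangle of suprabasal replicate 3 is the highest orange point for Ccnd1, Ccnd2 and Cdk6.

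Run codes differ between replicates: per the sample labels replicates 1 and 2 of both fractions share a code and replicates 3 and 4 another, whereas the table header gives each fraction a code of its own. If the header is right, run and fraction cannot be told apart. Within the earlier code of the labels the log2 fold changes were 1.111 for Cdkn1a, 1.355 for Cdkn2b, -4.705 for Ccnd2 and -2.416 for Cdkn2c. Within the later code they were 1.325 for Cdkn1a, 2.173 for Cdkn2b, -3.405 for Ccnd2 and -2.187 for Cdkn2c. All 9 genes called in the full comparison stayed called within each code. Cdkn1c changed by -1.22 within the earlier code (adjusted p = 5.99e-07) and by -0.361 within the later code (adjusted p = 0.393).

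The fraction contrast in the Dlx3 table had the same 2 genes higher and the same 7 lower, with Cdkn1c called lower as well. In KO mice 2 of the 10 genes were higher in suprabasal cells, against 19.9% of 12146 genes tested, and 8 were lower, against 69.7%. In WT mice 2 were higher, against 19.2%, and 8 lower, against 70.4%. The median change of all genes was -0.39 log2 in KO and -0.40 in WT mice. After rescaling, the same counts held in KO mice, while in WT mice Cdk6 lost its call (-0.053, adjusted p = 0.248).

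Among inhibitors, Cdkn1a had 117 and 112 RPKM in KO suprabasal cells, against 61.7 and 58.9 RPKM in KO basal cells, and 96.2 and 94.6 RPKM in WT suprabasal cells, against 51.6 and 54.2 RPKM in WT basal cells. Its log2 fold change was 0.91 ± 0.03 in KO and 0.84 ± 0.03 in WT mice (SE, n = 2 each; limma, adjusted p = 8.1e-09 and 1.3e-08). Cdkn2b had 8.65 and 8.50 RPKM in KO suprabasal cells, against 2.28 and 2.33 RPKM in KO basal cells, and 6.57 and 6.77 RPKM in WT suprabasal cells, against 1.48 and 1.41 RPKM in WT basal cells. The log2 fold change was 1.53 ± 0.04 in KO and 1.65 ± 0.04 in WT mice. For both genes the order was KO suprabasal, WT suprabasal, KO basal, WT basal, and no neighbours in that order overlapped, with 2 libraries each.

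Cdkn2c had 9.16 and 8.57 RPKM in KO suprabasal cells, against 19.2 and 19.6 RPKM in KO basal cells, and 8.17 and 7.63 RPKM in WT suprabasal cells, against 20.7 and 20.2 RPKM in WT basal cells. It fell by 1.05 in KO and by 1.27 in WT mice on the log2 scale. Cdkn1b had 13.8 and 14.4 RPKM in KO suprabasal cells, against 22.8 and 23.3 RPKM in KO basal cells, and 13.9 and 13.8 RPKM in WT suprabasal cells, against 23.4 and 24.2 RPKM in WT basal cells. Cdkn1c had 2.88 and 2.68 RPKM in KO suprabasal cells, against 6.00 and 6.81 RPKM in KO basal cells, and 2.67 RPKM in both WT suprabasal libraries, against 6.21 and 6.59 RPKM in WT basal cells. Cdkn1b fell by 0.67 in KO and by 0.74 in WT mice, and Cdkn1c by 0.97 and by 1.01, with an adjusted p of at most 2.4e-07 by limma. Every suprabasal library was below every basal library for these 3 genes.

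Among cyclins, Ccnd2 fell by 1.75 in KO and by 1.57 in WT mice, Ccnd1 by 1.21 and by 1.48, and Ccnd3 by 0.52 and by 0.71 (log2, limma, all called). Ccnd3 was again the least changed of the 3 and after rescaling fell by 0.099 in KO mice (adjusted p = 0.0213) and by 0.283 in WT mice (adjusted p = 3.65e-05). The Ccnd3 share of the cyclin D sum was 37.2% ± 0.649 in KO suprabasal and 33.0% ± 0.0119 in WT suprabasal libraries, against 22.2% ± 1.13 in KO basal and 21.6% ± 0.944 in WT basal libraries (SD, n = 2 each). Cdk4 had 107 and 104 RPKM in KO suprabasal cells, against 195 and 196 RPKM in KO basal cells, and 104 and 106 RPKM in WT suprabasal cells, against 212 and 215 RPKM in WT basal cells. It fell by 0.88 in KO and by 1.02 in WT mice. Cdk6 fell by 0.47 in KO and by 0.43 in WT mice, close to the median of all genes.

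**Figure D2:**
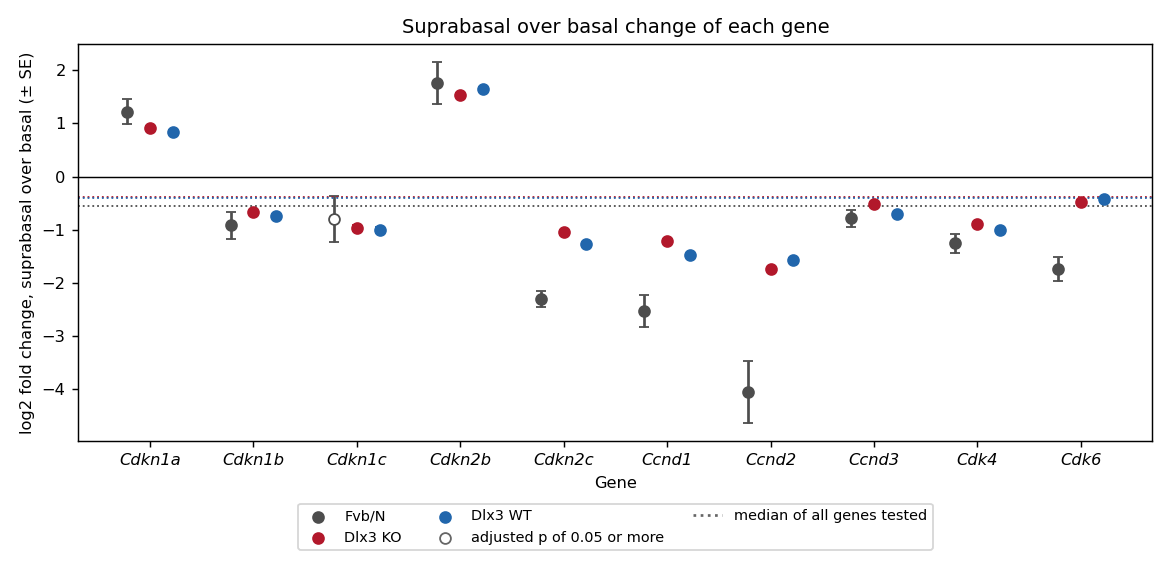
Log2 fold change, suprabasal over basal, with its standard error (y) for each gene (x) in Fvb/N, Dlx3 KO and Dlx3 WT mice; dotted lines give the median of all genes tested and an open circle an adjusted p of 0.05 or more. Only Cdkn1a and Cdkn2b lie above 0, Cdkn1c in Fvb/N is the only open circle, and error bars in the Dlx3 table are mostly smaller than the points.

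Genes that act with the 10 were counted from fixed lists, beside 60.6% of all genes lower and 13.4% higher in Fvb/N suprabasal cells. In Fvb/N mice all 10 later cyclins, CDKs and Cdc25 phosphatases were lower in suprabasal cells (median -2.65 log2, against -0.55 over all genes), among them Ccne1 (-2.09) and Ccne2 (-1.41), the cyclins that follow cyclin D. All 10 readouts of division were lower (median -3.31), among them Mcm2 (-3.19), a subunit of the replicative helicase, and Plk1 (-3.08), a mitotic kinase. Of 13 pocket proteins, E2F and DP factors 11 were lower and 0 higher (median -1.07), with E2f1 at -2.22 and Rbl1 (p107) at -2.47, and after rescaling 8 were lower and 2 higher. All 7 genes of the DREAM and Myb-MuvB complexes were lower (median -1.37), with Foxm1 at -3.36 and Mybl2 at -2.32, and after rescaling 6 were. On a list of further genes named as CDK inhibitors 2 were tested. Cdkn2d (p19) fell by 1.30, and Cdkn3, in neither the INK4 nor the Cip/Kip family, by 1.74. Cdkn2a, the remaining gene of that list, was listed at no more than 0.0324 RPKM in any library and did not pass the filter. Among 10 genes of p27 and cyclin D turnover 8 were lower (median -0.736, against -0.55 over all genes), with Skp2, which marks p27 for degradation, at -1.74 and its cofactor Cks1b at -2.42, and after rescaling 4 were lower and 1 higher.

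The lists of p53 with its targets, of TGF-beta and Notch signalling and of the Myc and Mxd network were mixed. Of 17 tested genes of p53 and its targets 3 were higher and 5 lower in Fvb/N suprabasal cells. Over all genes 13.4% were higher and 60.6% lower. The median of the 17 was -0.081 log2, against -0.55 over all genes, and after rescaling 8 of them were higher and 4 lower. Trp53 RNA itself fell by 2.21 on the log2 scale, with 14.8 ± 5.90 RPKM in suprabasal libraries and 69.2 ± 10.5 RPKM in basal libraries (SD, n = 4 each). The p53 targets Bax (-0.995) and Ccng1 (-0.92) fell too, while 3 genes of the list were called higher. Of 18 tested genes of TGF-beta and Notch signalling 1 was higher and 13 lower (median -1.24), with Tgfb3 at -2.34, Notch1 at -2.45 and its ligand Jag2 at -4.23, and after rescaling 4 were higher and 9 lower. The same contrast in the Dlx3 table gave 3 higher and 13 lower of the 18 TGF-beta and Notch genes in KO mice. In WT mice it gave 3 and 14. Of the 17 p53 genes 4 were higher and 10 lower in KO mice, and 6 and 8 in WT mice. Over all genes 19.9% were higher and 69.7% lower in KO mice, and 19.2% and 70.4% in WT mice. Notch3 rose by 1.59 in KO and by 1.76 in WT mice, against most of its list. Perp, a p53 and p63 target of desmosomes, rose by 1.21 and by 1.11. Of 10 genes of the Myc and Mxd network 1 was higher and 6 lower in Fvb/N mice, with Mycn at -2.38, and after rescaling 4 were higher and 6 lower.

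Loss of Dlx3 was compared within each fraction. In suprabasal cells 5 of the 10 genes were higher in KO than in WT libraries, against 21.6% of 12146 genes tested, and 1 was lower, against 15.7%. In basal cells 2 were higher, against 4.23%, and 1 lower, against 2.98%. The changes were small on the log2(RPKM + 1) scale, none reaching 0.5, and rest on 2 libraries a group. That scale understates low genes such as Cdkn2b, which was 1.60 times as high in KO as in WT basal cells by mean RPKM. Replicates of a Dlx3 group differed by little more than counting noise, and the number of animals is not given. Whether the genotype changes exceed the spread between animals was therefore not tested. The median change of all genes was 0.009 in suprabasal and -0.019 in basal cells. After rescaling the counts were the same in both fractions, and that median was 0.017 in suprabasal and 0.002 in basal cells.

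Cdkn1a and Cdkn2b were the genes called higher in KO cells of both fractions. Cdkn1a was 1.20 times as high in KO as in WT suprabasal cells by mean RPKM, a log2 fold change of 0.26 ± 0.03 (limma, adjusted p = 0.0006), and 1.14 times as high in KO as in WT basal cells, 0.19 ± 0.03 (adjusted p = 0.011). Cdkn2b was 1.28 times as high in KO suprabasal cells, 0.32 ± 0.04 (adjusted p = 0.0007), and 1.60 times as high in KO basal cells, 0.44 ± 0.04 (adjusted p = 0.0003). The KO libraries lay above the WT libraries without overlap in all these comparisons, which carries little weight with 2 libraries a group. The basal Cdkn1a call was lost without KO basal replicate 1 (adjusted p = 0.0827) or without WT basal replicate 1 (adjusted p = 0.075), and with no filter on low values (adjusted p = 0.0737).

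Markers of differentiation moved the same way in these libraries. All 8 suprabasal markers were higher in KO than in WT cells in each fraction, with summed levels of 54250 to 54570 RPKM in KO suprabasal, against 46820 to 47130 RPKM in WT suprabasal libraries, and 5965 to 6048 RPKM in KO basal, against 4043 to 4071 RPKM in WT basal libraries. Under quantile normalization 4 of the 8 were called higher in KO suprabasal cells and all 8 in KO basal cells. Of 6 basal markers 5 were lower in KO suprabasal cells, with sums of 6588 to 6649 RPKM in KO, against 7103 to 7159 RPKM in WT, and 1 was higher in KO basal cells, with sums of 15160 to 15250 RPKM in KO, against 14610 to 14960 RPKM in WT. All 8 melanocyte markers and 6 of 8 Langerhans and myeloid markers were higher in KO suprabasal cells, with sums of 105 to 106 RPKM in KO, against 70.3 to 70.9 RPKM in WT, and of 227 to 229 RPKM in KO, against 153 to 155 RPKM in WT. Of 8 markers of the inner root sheath and follicle 3 were higher and 5 lower in KO suprabasal cells (median -0.807 log2), with sums of 59.98 to 60.44 RPKM in KO, against 70.42 to 70.44 RPKM in WT. Of 5 fibroblast markers tested 3 were higher and 1 lower there (median 0.478), with sums of 187.9 to 194.9 RPKM in KO, against 209.9 to 212.3 RPKM in WT. Of 2 T cell markers tested 1 was higher there, and none of 5 erythroid markers tested was called. In KO basal cells 4 of 8 follicle markers and 2 of 5 fibroblast markers were lower, 3 of 8 melanocyte markers were higher, and 1 of 8 Langerhans and myeloid and 1 of 2 T cell markers were lower. In basal cells 5 of 5 erythroid markers tested were lower in KO, with sums of 41.9 to 42.1 RPKM in KO, against 93.9 to 99.5 RPKM in WT. No marker of these lists was at 0 in any Dlx3 library, and the part of all these in the changes of the cell cycle genes was not tested.

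The D-type cyclins parted in KO suprabasal cells. Ccnd1 had 29.4 and 30.7 RPKM in KO suprabasal cells, against 25.0 and 24.9 RPKM in WT suprabasal cells, a log2 fold change of 0.26 ± 0.03 (limma, adjusted p = 0.00015). Ccnd3 had 45.3 and 44.9 RPKM in KO suprabasal cells, against 37.8 and 37.5 RPKM in WT suprabasal cells, 0.25 ± 0.04 (adjusted p = 0.0008). Ccnd2 had 45.6 and 46.6 RPKM in KO suprabasal cells, against 51.9 and 51.3 RPKM in WT suprabasal cells, and fell by 0.16 on the log2 scale (SE 0.03; limma, adjusted p = 0.0037). None of the 3 overlapped between genotypes. With 2 libraries a group such a gap carries little weight, since Ccnd1 in basal cells did not overlap either and was not called. Ccnd2 was above Ccnd3 in WT suprabasal cells, while in KO suprabasal cells all values of both genes lay between 44.9 and 46.6 RPKM. The summed cyclin D RPKM was 121 ± 1.36 in KO suprabasal and 114 ± 0.697 in WT suprabasal libraries.

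In basal cells the cyclins gave no call. Ccnd1 had 70.5 and 71.1 RPKM in KO basal cells, against 71.5 and 71.6 RPKM in WT basal cells. Ccnd2 had 161 and 153 RPKM in KO basal cells, against 158 and 153 RPKM in WT basal cells, and Ccnd3 had 63.0 and 66.9 RPKM in KO basal cells, against 60.6 and 64.2 RPKM in WT basal cells. Their log2 fold changes were -0.015 ± 0.026, 0.017 ± 0.030 and 0.057 ± 0.035 (limma, adjusted p = 0.79, 0.80 and 0.40).

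**Figure D3:**
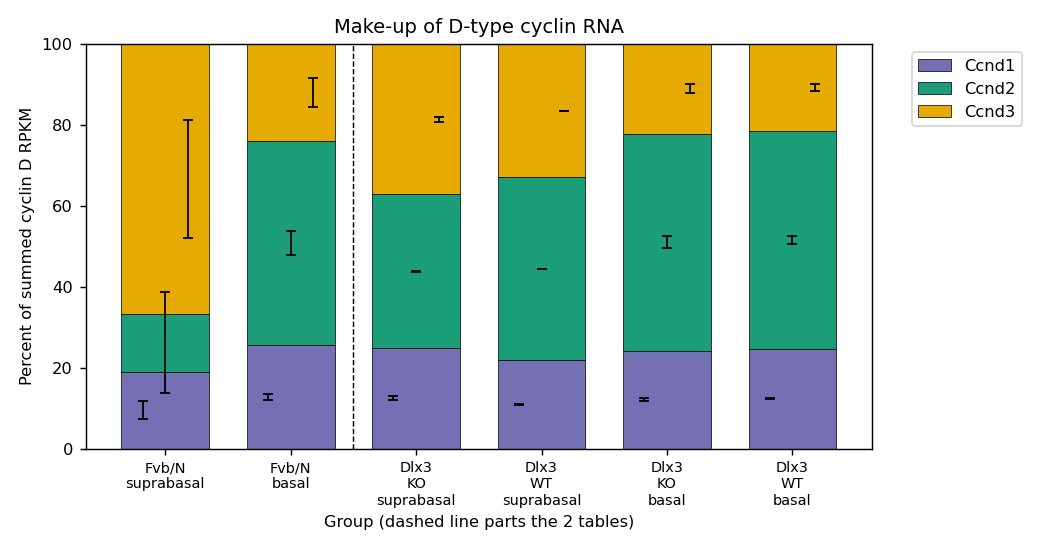
Mean percent (y) of the summed cyclin D RPKM made up by Ccnd1, Ccnd2 and Ccnd3 in each group (x), 4 libraries in each Fvb/N group and 2 in each Dlx3 group; a bar at the middle of each segment gives its SD. Ccnd3 makes up 66.7% of the sum in Fvb/N suprabasal and 23.9% in Fvb/N basal libraries, and 37.2% in KO suprabasal, against 33.0% in WT suprabasal libraries.

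The kinases and the remaining inhibitors changed little with genotype. Cdk4 fell in KO basal cells by 0.13 on the log2 scale (SE 0.02; limma, adjusted p = 0.012), a call lost without KO basal replicate 1 (adjusted p = 0.0735), without KO basal replicate 2 (0.0504) or without WT basal replicate 2 (0.0853), with no intensity trend (0.0685) and under quantile normalization (0.0895). In suprabasal cells the Cdk4 levels overlapped (0.005 ± 0.023), and under quantile normalization that value turned to -0.103 (adjusted p = 0.0094). Cdk6 had log2 fold changes of -0.072 ± 0.040 in suprabasal and -0.028 ± 0.040 in basal cells, neither called. Cdkn2c was higher in KO suprabasal cells, with a log2 fold change of 0.15 ± 0.04 (adjusted p = 0.023), a call lost without KO suprabasal replicate 1 (adjusted p = 0.133) or WT suprabasal replicate 2 (0.139), with no filter on low values (0.0649) and with only the KO and WT suprabasal groups in the fit (0.0535). Cdkn1b gave 0.020 ± 0.032 in suprabasal and -0.047 ± 0.032 in basal cells, and Cdkn1c gave 0.043 ± 0.060 and -0.001 ± 0.060, with no call.

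**Figure D4:**
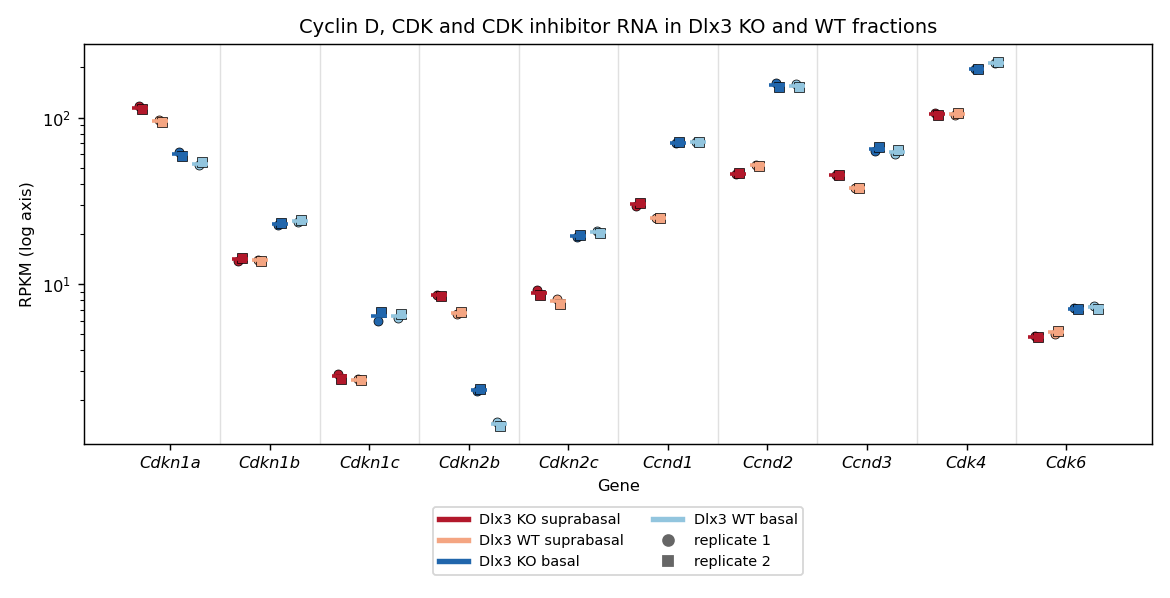
RPKM on a log axis (y) of the 10 genes (x) in each Dlx3 library, with a marker shape per replicate and a line at the mean of 2, in the order KO suprabasal, WT suprabasal, KO basal and WT basal. The fraction sets most of each gene's range, and KO points stand above WT points for Cdkn1a and Cdkn2b in both fractions and for Ccnd1 and Ccnd3 in the suprabasal fraction.

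The difference between fractions in the genotype effect was tested as an interaction, the KO change from basal to suprabasal minus the WT change. It was called above 0 for 4 of the 10 genes, against 14.4% of genes tested, and below 0 for 1, against 8.08%. Ccnd1 gave 0.28 ± 0.04 (limma, adjusted p = 0.0018) and kept its call under every setting tried, with an adjusted p of at most 0.0089 when any library was left out. Cdkn2c gave 0.22 ± 0.06 (adjusted p = 0.029), Ccnd3 0.20 ± 0.05 (0.023) and Cdk4 0.13 ± 0.03 (0.023), which turned to -0.023 under quantile normalization. Ccnd2 gave -0.18 ± 0.04 (0.019). With no filter on low values these 4 calls were lost (adjusted p = 0.0823 for Cdkn2c, 0.0822 for Ccnd3, 0.0513 for Cdk4 and 0.0669 for Ccnd2). With no intensity trend the calls of Ccnd2 (adjusted p = 0.0577), Ccnd3 (0.0577) and Cdk4 (0.0801) were lost. Under quantile normalization Ccnd3 lost its call as well (0.1, adjusted p = 0.126). The calls of those 4 genes were each lost when some single library was left out, with adjusted p up to 0.0887 for Cdkn2c, 0.0738 for Ccnd3, 0.0847 for Cdk4 and 0.0676 for Ccnd2. For Ccnd2 and Cdk4 these libraries were KO suprabasal replicate 1, WT suprabasal replicate 1, KO basal replicate 1 and WT basal replicate 2. For Ccnd3 they were all but KO basal replicate 2 and WT basal replicate 1, and for Cdkn2c all but KO suprabasal replicate 2 and WT suprabasal replicate 1. Cdkn1a (0.073 ± 0.048) and Cdkn2b (-0.12 ± 0.06) gave no interaction call, so their KO effect was not shown to differ between fractions. With a pseudocount of 0.1 in place of 1, Cdkn2b was called (-0.284, adjusted p = 0.03).

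**Figure D5:**
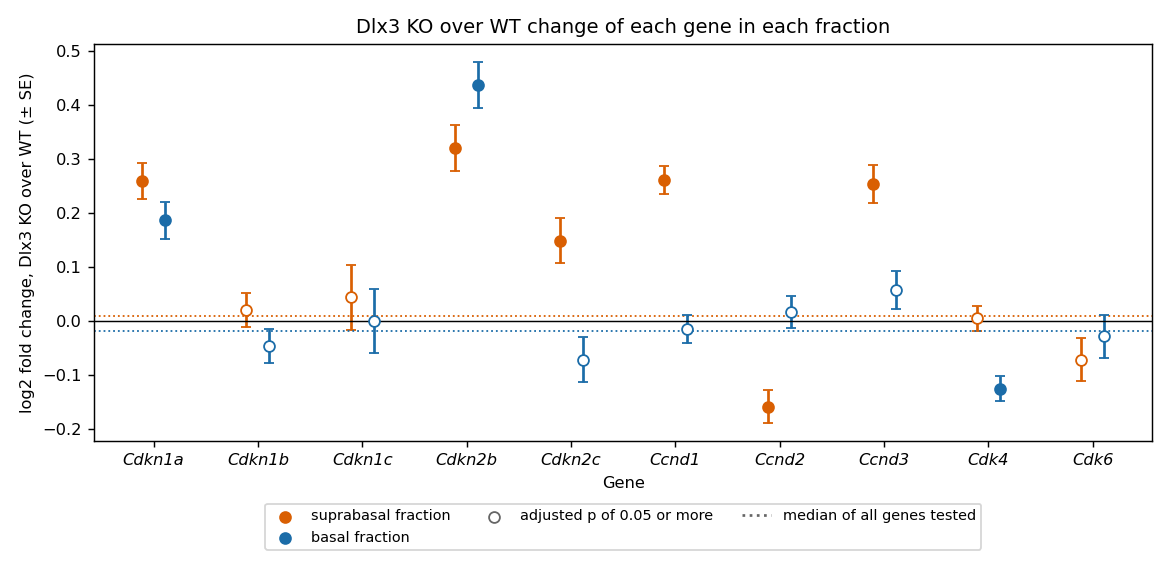
Log2 fold change, Dlx3 KO over WT, with its standard error (y) for each gene (x) in the suprabasal (orange) and basal (blue) fraction; open circles had an adjusted p of 0.05 or more and dotted lines give the median of all genes. Cdkn1a and Cdkn2b are filled and above 0 in both fractions, whereas Ccnd1 and Ccnd3 are filled and above 0 in the suprabasal fraction, where Ccnd2 is below 0.

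Among genes that act with the 10, the Myc and Mxd network had 6 of its 10 genes higher and 1 lower in KO suprabasal cells (median 0.12, against 0.009 over all genes). Mycn, a Myc family member, had 9.39 and 9.46 RPKM in KO suprabasal cells, against 6.58 and 6.66 RPKM in WT suprabasal cells, a log2 fold change of 0.45 (limma, adjusted p = 2.4e-05). In basal cells it had 12.3 and 12.5 RPKM in KO libraries, against 14.8 and 15.1 RPKM in WT libraries, and fell by 0.25 (adjusted p = 0.0014). The interaction was 0.71 (adjusted p = 6.0e-05). Max (0.15), the partner of Myc, and Mxd1 (0.41) and Mxi1 (0.31), which compete with Myc for Max, were higher in KO suprabasal cells.

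Later cyclins and CDKs gave 3 lower and 0 higher of 10 in KO basal cells, namely Ccna2 (-0.17), Ccnb1 (-0.18) and Ccnb2 (-0.18), and 1 higher and 1 lower in KO suprabasal cells. Readouts of division gave 2 lower of 10 in KO basal cells and 3 higher in KO suprabasal cells, among them Mcm5 (0.14) and Pcna (0.10), while quantile normalization left 0 of those 3. Mki67 had no call in either fraction, with 24.0 ± 0.286 RPKM in KO suprabasal and 25.0 ± 0.0191 RPKM in WT suprabasal libraries, and 52.9 ± 1.12 RPKM in KO basal and 53.7 ± 2.68 RPKM in WT basal libraries. The counts of these lists stand beside 21.6% of all genes higher and 15.7% lower in suprabasal cells, and 4.23% and 2.98% in basal cells. Of 17 p53 genes tested 3 were higher and 3 lower in KO suprabasal cells (median -0.015, against 0.009 over all genes), with Phlda3 at 0.34, Btg2 at 0.26 and Mdm4, an inhibitor of p53, at -0.40. Of 18 TGF-beta and Notch genes 4 were higher and 5 lower there (median 0.012), with Tgfb1 at 0.34 and Tgfb3 at 0.32. Klf4, a factor of barrier differentiation known to activate Cdkn1a, was higher in KO cells of both fractions (0.17 in suprabasal and 0.16 in basal cells).

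Genes whose levels ran most like each of the 10 were sought over the 16 libraries, among 11447 genes tested in both tables, by Pearson's r of log2(RPKM + 1) centred in each table. Such an r mostly reflects the gap between fractions, which all these libraries share. Dapl1 (r = 0.997), Rhou and Gltp were closest to Cdkn1a, and Them5 (0.992), Oas1f and Clic3 to Cdkn2b. Tead2 (0.999), Umps and Cmtm3 were closest to Ccnd1, Kif13a (0.999), Ppp1r9b and Pabpc4 to Ccnd2, and Gnb1 (0.998), Hnrnpf and Prps2 to Cdk4. Snn (0.997), Eme1 and Rad54l were closest to Cdkn2c, Pdzd8 (0.996), Arhgef40 and Fgfr2 to Cdk6, and Snx4 (0.994), Zrsr1 and Gabpa to Cdkn1b. The highest r was lower for Ccnd3, with Ifitm2 (0.979), Akt2 and Pkm, and for Cdkn1c, with Pygl (0.963), Itm2a and Pgm2.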

How the data were processed

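Total RNA libraries were made with an NEBNext Ultra II kit, per the labels' protocols. TopHat2 2.1.1, bcl2fastq 2.20.0.422 and Partek are named with build mm10 in the submitters' processing notes, and the authors deposited RPKM per gene in 2 tables, which were normalized apart and are compared only within a table. RPKM hide raw counts: depth was estimated from the smallest RPKM steps of 6183 single-transcript genes. Here log2(RPKM + 1) of genes reaching 1 RPKM in at least 4 (Fvb/N, 11608 genes) or 2 (Dlx3, 12146 genes) libraries was fitted with limma 3.58.1 in R 4.3.3, with an intensity trend, group means and Benjamini-Hochberg adjustment, called under 0.05; the fit was tested on simulated data. Replicates of a Dlx3 group differed by a median of 2.5 to 2.9% over genes, slightly more than counting noise, and Fvb/N replicates by 6.1 to 27.5%. Same-numbered Fvb/N fractions deviated together (r = 0.51, 0.57, 0.56 and 0.12), each over the 0.1 at which numbers were taken to pair libraries. Libraries of unlike number within a run code of the labels gave 0.36 and 0.59 (earlier code) and 0.01 and 0.47 (later code), so number and run code cannot be told apart as the source. The main Fvb/N fit used group means alone and took neither into account. There 7 of the 10 genes were called lower, while 8 were with the replicate number as a block or the run code as a term. The 10 genes, the gene lists and the markers were chosen with earlier results of these data known. All 10 genes are named throughout, from each list up to 4 genes with the smallest p in a comparison, plus Dlx3; Mki67 was named after its values were seen.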

Additional observations from a re-analysis of the deposited data

Results flagged for a closer look

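In 20 groups of 4 libraries, 2 had a library far from the others by Dixon's ratio, where chance flags about 1 group in 20. They were Cdkn1b (0.907) and Cdk6 (0.936) in Fvb/N suprabasal cells, and in both replicate 3 was the high library, with 13.9 RPKM for Cdkn1b and 4.58 RPKM for Cdk6. That library also had the highest basal-marker sum of its group, 3610 RPKM, and the part of that in the result was not tested.

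The suprabasal to basal change differed between KO and WT mice by the interaction test for Ccnd1 (0.28), Ccnd2 (-0.18), Ccnd3 (0.2), Cdk4 (0.13) and Cdkn2c (0.22), as KO minus WT on the log2 scale. Of 6 basal markers 5 had an interaction below 0, and of 8 suprabasal markers 6 did. Above 0 were 5 of 5 erythroid markers tested (median 1.179), 6 of 8 Langerhans and myeloid (0.458), 5 of 8 melanocyte (0.329) and 1 of 2 T cell markers. Of 5 fibroblast markers 4 were above and 1 below 0 (0.625), and of 8 follicle markers 3 were above and 5 below 0 (-0.837). The part of these markers in the result was not tested.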

How the results depend on the processing

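Of the values of single genes under alternatives, 764 kept direction and side of the threshold, 44 lost their call, 6 gained one and 16 changed sign. The sign changes were small. In KO against WT basal cells Ccnd1 became 0.001 with quantile normalization and 0.009 after rescaling, Cdkn1c became 0.007 and 0.02, and with single libraries left out Ccnd2 ran over -0.02 to 0.054 and Cdkn1c over -0.079 to 0.078. In suprabasal cells Cdk4 became -0.103 and Cdkn1b -0.011 with quantile normalization, and with single libraries left out they ran over -0.016 to 0.026 and -0.008 to 0.047. In the interaction Cdk4 became -0.023 and Cdkn1a -0.094 with quantile normalization, and Cdkn1c ran over -0.035 to 0.123 with single libraries left out. The cause was not tested.

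After rescaling, 4519 genes were higher and 5193 lower in KO suprabasal against basal cells, where RPKM gave 2416 and 8467. In WT mice rescaling gave 4550 and 5189, and quantile normalization 3739 higher. In Fvb/N mice genes higher numbered 2382 with no filter, 3621 with quantile normalization and 3450 after rescaling, and genes lower 3962 and 4088 with those scalings, against 1554 and 7030. In KO against WT basal cells genes lower were 228 with no filter, 240 with quantile normalization and 213 after rescaling. The interaction gave 1028 genes above 0 with quantile normalization.

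Among the 10 genes, calls higher in KO basal cells were 1 with no filter, and calls lower were 0 with no intensity trend and 0 with quantile normalization. In KO suprabasal cells 2 were lower with quantile normalization. Interaction calls above 0 were 1 with no filter, 2 with no intensity trend and 2 with quantile normalization, and below 0 were 0 with no filter, 0 with no intensity trend and 2 with a pseudocount of 0.1, where Cdkn2b was called.

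With each library left out in turn, KO against WT basal cells gave 329 to 351 genes higher and 112 to 193 lower, with 1 to 2 and 0 to 1 of the 10 genes. Suprabasal cells gave 1173 to 1411 genes lower. The interaction gave 1047 to 1514 genes above and 553 to 797 below 0, with 1 to 3 and 0 to 1 of the 10 genes.

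Same-numbered Dlx3 libraries share only a number (correlation of deviations -0.03 to 0.07). With the replicate number as a block, 2404 genes were higher in KO and 2341 in WT suprabasal against basal cells, 2591 higher in KO against WT suprabasal and 496 in KO against WT basal cells, and 1718 were above 0 in the interaction, with no call of the 10 genes changed. In Fvb/N mice the block gave 1685 genes higher and 7142 lower and changed the Cdkn1c call alone among the 10. With 2 libraries a group that differed by a median of 2.5 to 2.9%, even small genotype differences were called. Whether they exceed the spread between animals was not tested and cannot be told from these libraries.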
